A study of Fragaria x ananassa with 6 samples.

Results

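The genes described here are neighbours by number. They are 112 IDs of the deposited count table that lie in 35 runs, a run being 3 or more consecutive IDs that all differed strongly, and in the same direction, between receptacles of FaWRKY71-RNAi and Control strawberry plants. Of the 28588 IDs in the table, 28411 belong to 7 numbered series, and the 15422 of these that averaged 1 CPM or more over the 6 libraries (CPM being counts per 1000000 counts of the library) were kept and sorted by series and gene number. A run needed a log2 ratio of mean CPM, with 0.5 CPM added to each mean, of 1.5 or more in every ID, or of -1.5 or less in every ID, and members with 5 or fewer counts over the 3 libraries of either genotype were then left out. The FaWRKY71-RNAi plants were Fragaria x ananassa, the cultivated strawberry, of the cultivar Chandler. They carried a pFRN vector with a conserved stretch of the coding sequence of the transcription factor gene FaWRKY71. The Control plants, of the same cultivar, carried the empty pFRN vector. Both were stable transformants made with Agrobacterium tumefaciens strain AGL0, no plant was treated, and poly(A) RNA of the fruit receptacle was sequenced in 3 libraries per genotype. The study asked about FaWRKY71 in drought, whereas the libraries compared here come from untreated plants. The sources used here give neither the promoter that drives the hairpin nor the number of transgenic lines, the fruit stage or the age of the plants. The library names carry a single number per genotype, and if it marks a single line or source, the spread between libraries is spread within that source.

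WRKY proteins are plant transcription factors that bind short W-box elements in promoters, and many act in responses to stress and in ripening. A hairpin RNA that matches such a gene is cut into small RNAs, which direct the destruction of its transcript. Genes next to each other on a plant chromosome can change together for several known reasons: tandem duplication leaves similar copies side by side, neighbours can share regulatory sequence or chromatin state, and some pathways of specialised metabolism are encoded in clusters. Similar copies also share sequencing reads, which a counting program has to divide between them. These are general facts and were not tested here. An ID consists of FvH4, a series number, a gene number and a suffix. The gene numbers step by 10 without a gap in the table. The files and the reference table used here pair none of the IDs with a name (0 of 28588 matched), so no ID has a stated function, tissue markers and FaWRKY71 itself could not be checked, and the sources used here do not say whether number order is chromosome order.

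Of the 35 runs, 32 were higher in FaWRKY71-RNAi and 3 were lower. The higher runs took in 110 IDs, of which 13 were left out for low counts, so that 97 members remained, and the lower runs took in 15 IDs, all of which remained. Every one of the 13 had 5 or fewer counts over the Control libraries. Without them, 27 higher runs still had 3 or more members, 3 had 2 members and 2 had 1 member. The log2 ratios of the higher members had a median of 2.03 and ran from 1.51 to 4.74, and those of the lower members had a median of -2.80 and ran from -3.42 to -1.68. The members were chosen by these ratios, measured in all 6 libraries, and the ratios are given as a description. Of all kept IDs, 10.9% had a log2 ratio of 1.5 or more and 3.27% one of -1.5 or less, and the members were drawn from these. Members just inside the threshold were FvH4_4g34550.1 at 1.51 and FvH4_2g28560.1 at -1.68. Just outside it, next to a run, lay FvH4_7g08140.1 at 1.49 and FvH4_2g28380.1 at -0.83.

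The genotypes were also compared over the whole table with edgeR's quasi-likelihood test. It called 95 of the 97 higher members higher and all 15 lower members lower at a Benjamini-Hochberg adjusted p of 0.05, where 30.1% of the 15547 IDs tested were called higher and 24.2% lower. The same 95 and 15 members had every FaWRKY71-RNAi library on one side of every Control library, which held in the higher direction for 39.6% and in the lower direction for 24.0% of all kept IDs. The rule used this same contrast, so nothing is read from these counts. The exceptions were FvH4_3g11610.1 and FvH4_7g01830.1. Dividing by the column sums, as the rule does, set the median log2 ratio of all kept IDs at 0.17. With TMM scaling of the library sizes (edgeR's trimmed mean of M-values) it was 0.02, and the rule then gave 26 runs, 20 higher and 6 lower. Their members were 57 higher and 24 lower, so that 70.4% were higher, against 86.6% with column sums, and 72 of the 112 members were among them. Of all kept IDs past the ratio, 76.9% were higher with column sums. With TMM scaling, 1385 kept IDs past it were higher and 613 lower.

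**Figure D1:**
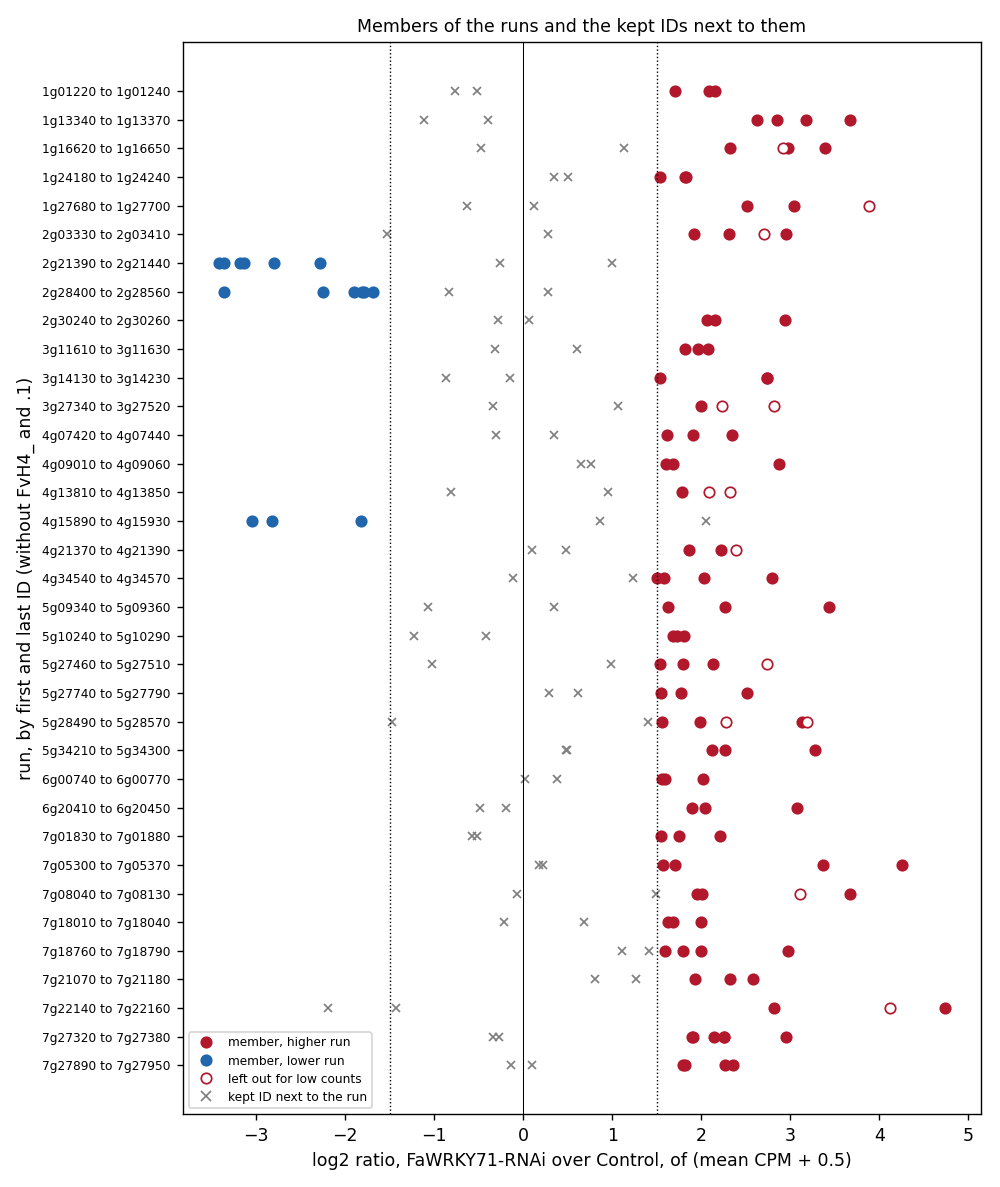
Log2 ratio, FaWRKY71-RNAi over Control, of each member of the 35 runs (filled circles, red for higher and blue for lower runs), of the 13 IDs left out for low counts (open circles) and of the kept IDs next to each run (grey crosses). Rows are the runs in number order, and dotted lines mark log2 ratios of 1.5 and -1.5, inside which all but 3 crosses lie.

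Depth ranged from 8385218 counts in FaWRKY71-RNAi replicate 2 to 10000538 in Control replicate 1, and 3 counts, the limit that a count of 0 allows, correspond to between 0.300 and 0.358 CPM. Such limits cover counting error only, since reads are not necessarily independent molecules. The values that follow are CPM of replicates 1, 2 and 3 of each genotype in that order. They are not divided by gene length, so they compare libraries and not genes. Counts are given rounded to whole numbers, except where their fractions are the subject. In bulk tissue, fewer cells of a type and less RNA per cell cannot be told apart.

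The 6 members from FvH4_2g21390.1 to FvH4_2g21440.1 are directly consecutive IDs, and all were lower in FaWRKY71-RNAi. FvH4_2g21390.1 had 34.7, 0 and 34.3 CPM in the FaWRKY71-RNAi libraries, against 246, 236 and 240.0 CPM in the Control libraries. FvH4_2g21400.1 had 29.7, 0 and 28.6 CPM in FaWRKY71-RNAi, against 189.8, 175 and 177 CPM in Control. FvH4_2g21410.1 had 11.8, 0.119 and 12.5 CPM in FaWRKY71-RNAi, against 77.2, 74.6 and 73.9 CPM in Control. In all of these, FaWRKY71-RNAi replicates 1 and 3 were close to each other and well below every Control library, and replicate 2 was at or near 0. The estimated counts behind replicate 2 were 0, 0 and 1. FvH4_2g21430.1 had the same shape, with 2.74, 0.119 and 2.69 CPM in FaWRKY71-RNAi, against 23.2, 23.3 and 27.4 CPM in Control. FvH4_2g21420.1 kept a measurable level in replicate 2, with 12.7, 2.39 and 8.53 CPM in FaWRKY71-RNAi, against 54.3, 59.9 and 58.9 CPM in Control. The last ID of the run, FvH4_2g21440.1, had 0.526, 0.358 and 0.786 CPM in FaWRKY71-RNAi, against 5.1, 4.7 and 4.18 CPM in Control, that is 5, 3 and 7 counts in FaWRKY71-RNAi, too few to show whether replicate 2 differed from the others.

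Set against the Control mean, the members of this run stood between 10.9% and 22.1% in FaWRKY71-RNAi replicates 1 and 3. FvH4_2g21390.1 stood at 14.4% of the Control mean in FaWRKY71-RNAi replicate 1 and 14.2% in replicate 3. The shares were 16.4% and 15.8% for FvH4_2g21400.1, and 15.7% and 16.6% for FvH4_2g21410.1. For FvH4_2g21420.1 they were 22.1% and 14.8%, and for FvH4_2g21430.1 11.1% and 10.9%. In replicate 2 the shares were 0, 0, 0.158%, 4.13% and 0.484% in the same order. FvH4_2g21440.1, with few counts, stood at 11.3%, 7.68% and 16.9% in replicates 1, 2 and 3. The genotype means of FvH4_2g21390.1 were 23.0 ± 19.9 CPM in FaWRKY71-RNAi and 241 ± 4.91 CPM in Control (SD, n = 3 each), with the whole of the large spread on the FaWRKY71-RNAi side. The next kept IDs, FvH4_2g21370.1 before the run and FvH4_2g21470.1 after it, had log2 ratios of -0.26 and 1.0, so the run ended sharply on both sides.

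FvH4_4g15890.1 and FvH4_4g15900.1, in another series, showed the same order of libraries. FvH4_4g15890.1 had 11.4, 0 and 12.8 CPM in the FaWRKY71-RNAi libraries, against 68.7, 50.2 and 61.6 CPM in the Control libraries. FvH4_4g15900.1 had 27.5, 0.119 and 19.0 CPM in FaWRKY71-RNAi, against 134, 129.6 and 132 CPM in Control. Replicate 2 again held 0 and 1 counts, and replicates 1 and 3 stood at 19.0% and 21.2% of the Control mean for the first ID and at 20.9% and 14.4% for the second. The third member, FvH4_4g15930.1, rests on 4, 0 and 2 counts in FaWRKY71-RNAi and had 0.421, 0 and 0.225 CPM in FaWRKY71-RNAi, against 1.9, 2.82 and 1.39 CPM in Control. Without Control replicate 1 or without Control replicate 2 this ID was no longer in a run, and the run ended. The next kept ID before the run, FvH4_4g15870.1, went the other way, with 3.91, 2.73 and 3.03 CPM in FaWRKY71-RNAi, against 0.495, 0.376 and 0.322 CPM in Control.

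A level at or near 0 in replicate 2 beside measurable levels in replicates 1 and 3 was uncommon in the table as a whole. Among all 15422 kept IDs, 11 had at most 1 count in FaWRKY71-RNAi replicate 2 while replicates 1 and 3 were both at 5 CPM or more, and 5 of the 11 were members of these runs. The converse patterns, with replicate 1 or replicate 3 as the library near 0, were found for 6 and 0 kept IDs, none of them members. Of the 11041 kept IDs with a Control mean of at least 5 CPM, 11 stood below 5% of it in replicate 2 and between 10% and 25% of it in both replicate 1 and replicate 3. Of these 11 IDs, 7 were members, namely 5 of the run that begins at FvH4_2g21390.1 and 2 of the run that begins at FvH4_4g15890.1. Both patterns were defined after the values were seen and have no test. FvH4_4g15890.1 and FvH4_4g15900.1 shared reads, and members of a run are neighbours, so the members in these counts are not independent observations. The sources used here do not say whether the 3 libraries came from the same transgenic line.

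In the third lower run, from FvH4_2g28400.1 to FvH4_2g28560.1, FaWRKY71-RNAi replicate 1 was the lowest or level with the others. FvH4_2g28400.1 had 0, 4.05 and 2.02 CPM in the FaWRKY71-RNAi libraries, against 20.9, 27.4 and 28.2 CPM in the Control libraries. FvH4_2g28450.1 had 0, 0.835 and 0.53 CPM in FaWRKY71-RNAi, against 2.9, 3.03 and 2.64 CPM in Control. FvH4_2g28480.1 had 0.737, 1.19 and 0.786 CPM in FaWRKY71-RNAi, against 4.0, 4.6 and 5.69 CPM in Control. Replicate 1 held 0 counts of the first pair and replicate 2 the most of the FaWRKY71-RNAi libraries, the reverse of the other lower runs. FvH4_2g28490.1 was level at 2 counts in each FaWRKY71-RNAi library and had 0.211, 0.239 and 0.225 CPM in FaWRKY71-RNAi, against 2.7, 2.82 and 3.33 CPM in Control. FvH4_2g28510.1 had 0.211, 0.477 and 0.337 CPM in FaWRKY71-RNAi, against 1.7, 2.4 and 3.12 CPM in Control. FvH4_2g28560.1 had 0.421, 1.31 and 1.68 CPM in FaWRKY71-RNAi, against 5.6, 3.97 and 4.72 CPM in Control. Apart from FvH4_2g28400.1, the members were below 6 CPM in every library, and their values in FaWRKY71-RNAi rest on 15 or fewer counts per library. The run also skips 11 IDs that were below 1 CPM, the second most of any run. Without FaWRKY71-RNAi replicate 1, 5 of its 6 members remained in a run.

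Across the 15 lower members, replicate 2 was the lowest FaWRKY71-RNAi library for the 9 in the runs from FvH4_2g21390.1 and FvH4_4g15890.1, and replicate 1 for the 6 in the run from FvH4_2g28400.1, in FvH4_2g28490.1 only through library size. Outside the runs, 490 kept IDs had a log2 ratio of -1.5 or less, and for 67.1% of them the lowest was replicate 1, with replicate 2 lowest for 20.6%. The median coefficient of variation of the lower members was 85.4% among the FaWRKY71-RNAi libraries and 9.84% among the Control libraries. For the 490 others it was 58.2% and 10.1%. Members of a run are neighbours and partly share reads, so these 15 are not independent observations, and the difference was not tested. When FaWRKY71-RNAi replicate 2 was left out, the rule found 9 lower runs with 27 members and 27 higher runs with 85 members, so the number of lower runs depends on that library.

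**Figure D2:**
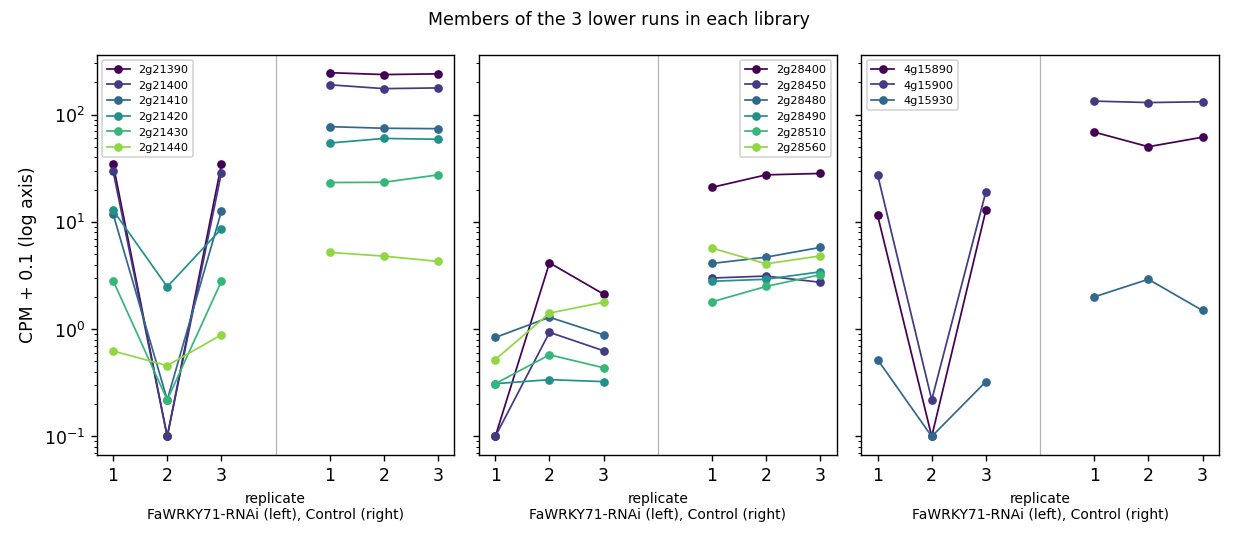
CPM of each member of the 3 lower runs in the FaWRKY71-RNAi libraries (left of the grey line) and the Control libraries (right), on a log axis with 0.1 CPM added; a line joins the values of 1 ID and replicates have no order. In the left and right panels replicate 2 of FaWRKY71-RNAi is at or near 0 for most members, and in the middle panel replicate 1 is lowest.

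The longest higher run held 6 members, from FvH4_7g27320.1 to FvH4_7g27380.1, with a single ID without counts in between. FvH4_7g27350.1 had 21.0, 24.0 and 23.0 CPM in the FaWRKY71-RNAi libraries, against 5.22, 5.21 and 3.84 CPM in the Control libraries. FvH4_7g27360.1 had 24.5, 18.6 and 20.01 CPM in FaWRKY71-RNAi, against 1.9, 2.26 and 2.74 CPM in Control. FvH4_7g27370.1 had 18.7, 18.6 and 17.2 CPM in FaWRKY71-RNAi, against 2.89, 2.94 and 4.38 CPM in Control. In each, the FaWRKY71-RNAi libraries were close together and far above Control, by 4.77-fold, 9.16-fold and 5.34-fold in the same order. The counts of each were fractional in every library, so these folds depend on how reads were divided between IDs. The other members were lower in counts. FvH4_7g27320.1 had 4.0, 2.39 and 4.27 CPM in FaWRKY71-RNAi, against 0.60, 0.836 and 0.322 CPM in Control. FvH4_7g27330.1 had 6.3, 4.71 and 7.24 CPM in FaWRKY71-RNAi, against 1.86, 1.01 and 0.911 CPM in Control. FvH4_7g27380.1 had 5.45, 5.92 and 4.03 CPM in FaWRKY71-RNAi, against 1.4, 0.418 and 0.215 CPM in Control. Here too no FaWRKY71-RNAi library overlapped a Control library, although single Control values fell to 2 or 3 counts. The kept IDs next to the run had log2 ratios of -0.27 and -0.34. When only IDs with whole counts in every library were used, no member of this run was in a run.

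The 4 directly consecutive IDs from FvH4_1g13340.1 to FvH4_1g13370.1 formed one of 5 higher runs with 4 members, and the one with the largest median ratio of these, 3.01 on the log2 scale. FvH4_1g13370.1 had 214, 151 and 204 CPM in the FaWRKY71-RNAi libraries, against 26.8, 26.9 and 24.0 CPM in the Control libraries, a 7.33-fold difference of means, which were 189.7 ± 34.2 CPM in FaWRKY71-RNAi and 25.9 ± 1.66 CPM in Control (SD, n = 3 each). FvH4_1g13350.1 had 129, 84.6 and 117 CPM in FaWRKY71-RNAi, against 17.7, 17.8 and 17.0 CPM in Control. For both, FaWRKY71-RNAi replicate 2 was lowest of its genotype. FvH4_1g13340.1 had 8.84, 10.5 and 9.77 CPM in FaWRKY71-RNAi, against 0.70, 0.209 and 0 CPM in Control. FvH4_1g13360.1 had 17.0, 22.7 and 14.1 CPM in FaWRKY71-RNAi, against 2.7, 0.94 and 0.966 CPM in Control. In FvH4_1g13340.1 the Control libraries held only 7, 2 and 0 counts, so the fold of 32.0 is imprecise. The ID before this run, FvH4_1g13330.1, was lower in FaWRKY71-RNAi, with 73.3, 62.3 and 66.8 CPM in FaWRKY71-RNAi, against 152, 156 and 133 CPM in Control.

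The run from FvH4_7g05300.1 to FvH4_7g05370.1 skips 4 IDs below 1 CPM. FvH4_7g05370.1 had 14.9, 16.2 and 15.0 CPM in the FaWRKY71-RNAi libraries, against 0.149, 0.609 and 0.244 CPM in the Control libraries. FvH4_7g05330.1 had 11.3, 11.6 and 12.6 CPM in FaWRKY71-RNAi, against 0.80, 0.731 and 0.536 CPM in Control. These are large contrasts of 46.0-fold and 17.1-fold from a Control level at or under 1 CPM, with little spread between the FaWRKY71-RNAi libraries. The first is imprecise, since it rests on 1, 6 and 2 counts in Control. Its counts were also fractional in every library, so this fold depends on how reads were divided. FvH4_7g05310.1 had 41.6, 29.4 and 37.9 CPM in FaWRKY71-RNAi, against 13.6, 12.3 and 9.76 CPM in Control. FvH4_7g05300.1 had 4.18, 5.16 and 3.83 CPM in FaWRKY71-RNAi, against 0.419, 1.5 and 1.07 CPM in Control. Their log2 ratios of 1.57 and 1.71 lay close to the threshold. With TMM scaling, without FaWRKY71-RNAi replicate 1 or without Control replicate 3, no member of this run was in a run.

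Between FvH4_7g27890.1 and FvH4_7g27950.1, in the same series as the longest run, lay a run of 4 members with 3 skipped IDs. FvH4_7g27890.1 had 4.43, 3.36 and 6.77 CPM in FaWRKY71-RNAi, against 0.759, 1.27 and 1.02 CPM in Control. FvH4_7g27900.1 had 8.24, 6.42 and 8.78 CPM in FaWRKY71-RNAi, against 0.784, 1.09 and 1.48 CPM in Control. Both were lowest in replicate 2 of the FaWRKY71-RNAi libraries. FvH4_7g27930.1 had 8.63, 11.4 and 8.76 CPM in FaWRKY71-RNAi, against 3.4, 1.57 and 2.25 CPM in Control. FvH4_7g27950.1 had 8.42, 5.72 and 8.98 CPM in FaWRKY71-RNAi, against 1.4, 1.25 and 0.966 CPM in Control. Replicate 2 was highest for FvH4_7g27930.1 and lowest for FvH4_7g27950.1. The FaWRKY71-RNAi values of this run lay between 3.36 and 11.4 CPM and the Control values between 0.759 and 3.40 CPM.

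**Figure D3:**
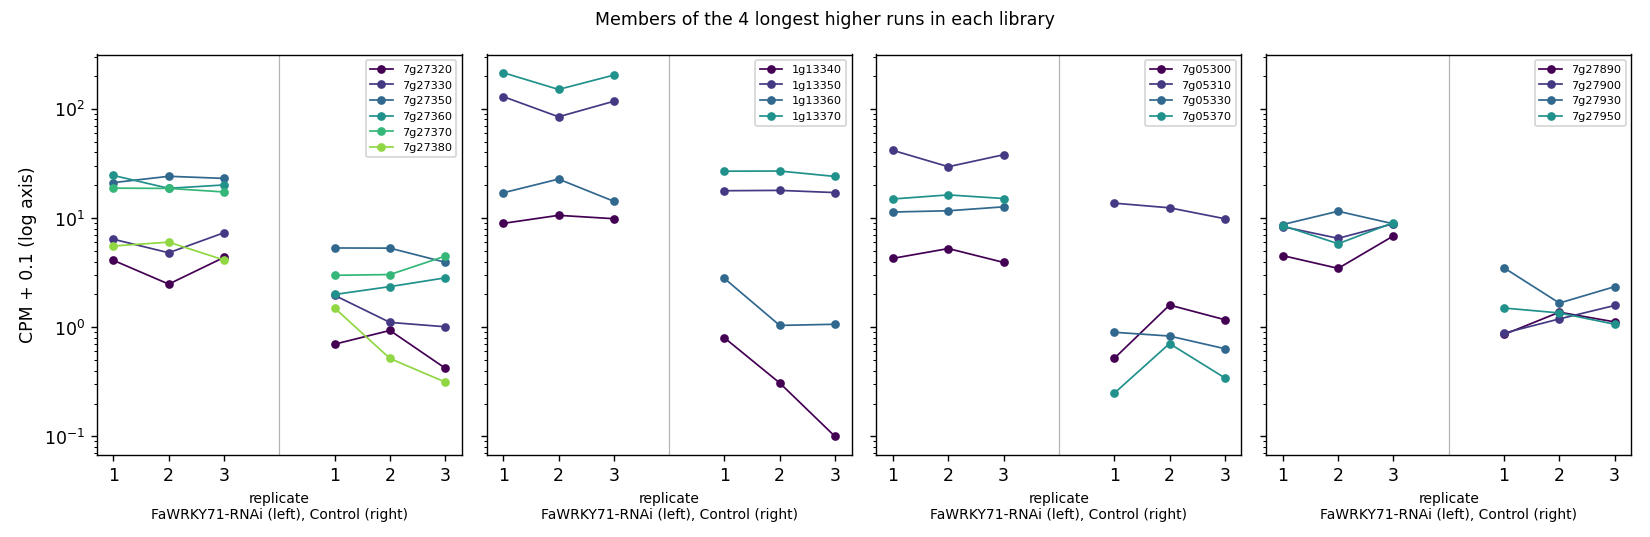
CPM of each member of the 4 longest higher runs in the FaWRKY71-RNAi libraries (left of the grey line) and the Control libraries (right), on a log axis with 0.1 CPM added; a line joins the values of 1 ID and replicates have no order. For every member shown, each FaWRKY71-RNAi value lies above each Control value.

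Series 1 held 5 higher runs, counting the one from FvH4_1g13340.1. From FvH4_1g01220.1 to FvH4_1g01240.1 the member with the most counts was FvH4_1g01230.1, with 32.1, 30.4 and 31.3 CPM in the FaWRKY71-RNAi libraries, against 8.3, 6.48 and 6.22 CPM in the Control libraries. From FvH4_1g16620.1 to FvH4_1g16650.1 it was FvH4_1g16620.1, with 8.03, 4.38 and 9.4 CPM in FaWRKY71-RNAi, against 0.20, 0.418 and 0.107 CPM in Control. The Control libraries held 4 or fewer counts of this ID each, so its 30.1-fold ratio is imprecise. From FvH4_1g24180.1 to FvH4_1g24240.1 the leading member was FvH4_1g24240.1, with 130.0, 86.3 and 109 CPM in FaWRKY71-RNAi, against 31.5, 28.1 and 31.0 CPM in Control. This run lay near the threshold, with FvH4_1g24200.1 at 1.53, and it was lost when FaWRKY71-RNAi replicate 1, FaWRKY71-RNAi replicate 3 or Control replicate 2 was left out. In the run from FvH4_1g27680.1 to FvH4_1g27700.1, FvH4_1g27680.1 had 10.0, 7.44 and 9.69 CPM in FaWRKY71-RNAi, against 0.90, 1.13 and 1.5 CPM in Control. Its middle ID, FvH4_1g27690.1, was left out for low counts, with 5 counts over the Control libraries against 93, 77 and 83 counts in FaWRKY71-RNAi.

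Series 2 held a pair of higher runs, each with a member that differed steadily in all libraries. FvH4_2g30250.1, between FvH4_2g30240.1 and FvH4_2g30260.1, had 419.9, 415 and 397 CPM in the FaWRKY71-RNAi libraries, against 52.4, 54.8 and 52.5 CPM in the Control libraries. Its means were 411 ± 12.2 CPM in FaWRKY71-RNAi and 53.2 ± 1.39 CPM in Control (SD, n = 3 each), a 7.71-fold difference against a spread of a few percent in either genotype. FvH4_2g03330.1, the first ID of the run that ends at FvH4_2g03410.1, had 72.4, 71.0 and 71.5 CPM in FaWRKY71-RNAi, against 15.1, 12.0 and 15.0 CPM in Control. Directly before it, FvH4_2g03320.1 was lower in FaWRKY71-RNAi, with 34.6, 73.2 and 45.9 CPM in FaWRKY71-RNAi, against 156, 151 and 139 CPM in Control. The neighbours thus moved apart, with log2 ratios of 2.31 and -1.53.

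In series 3, FvH4_3g11630.1 led the run that begins at FvH4_3g11610.1, with 33.6, 26.5 and 30.0 CPM in the FaWRKY71-RNAi libraries, against 7.7, 8.77 and 5.58 CPM in the Control libraries. FvH4_3g11610.1 itself had 6.37, 54.7 and 21.7 CPM in FaWRKY71-RNAi, against 6.63, 5.24 and 6.69 CPM in Control. FaWRKY71-RNAi replicate 1 lay within the Control range there and replicate 2 far above it, which is why the genotypes overlapped. The run was lost without replicate 2. From FvH4_3g14130.1 to FvH4_3g14230.1, FvH4_3g14230.1 had 11.8, 3.71 and 6.61 CPM in FaWRKY71-RNAi, against 0.50, 0.887 and 0.662 CPM in Control. FaWRKY71-RNAi replicate 2 was lowest of its genotype for all 3 members of that run. Only FvH4_3g27350.1 remained of the run from FvH4_3g27340.1 to FvH4_3g27520.1, with 4.11, 1.55 and 2.92 CPM in FaWRKY71-RNAi, against 0, 0.627 and 0.407 CPM in Control, and this run skips 16 IDs, more than any other.

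The 5 higher runs of series 4 differed in how the FaWRKY71-RNAi libraries were ordered. FvH4_4g34540.1, which begins the run that ends at FvH4_4g34570.1, had 99.5, 246 and 139.9 CPM in the FaWRKY71-RNAi libraries, against 37.3, 41.4 and 39.3 CPM in the Control libraries. FvH4_4g21390.1 had 13.8, 42.6 and 19.3 CPM in FaWRKY71-RNAi, against 4.9, 5.43 and 4.72 CPM in Control. In both, replicate 2 was well above replicates 1 and 3, and FvH4_4g21380.1, in the same run as FvH4_4g21390.1, had 39, 78 and 34 counts in FaWRKY71-RNAi and 5, 18 and 12 in Control. FvH4_4g34560.1 and FvH4_4g34570.1 in the first of these runs did not share this order. FvH4_4g34570.1 had 21.6, 18.0 and 21.0 CPM in FaWRKY71-RNAi, against 2.4, 3.34 and 1.72 CPM in Control. The run from FvH4_4g34540.1 had no member in a run with TMM scaling, without either of FaWRKY71-RNAi replicates 1 and 2 or without either of Control replicates 1 and 2. FvH4_4g07440.1, which ends the run from FvH4_4g07420.1, had 143, 171 and 145 CPM in FaWRKY71-RNAi, against 45.7, 55.4 and 47.1 CPM in Control. FvH4_4g09060.1, at the end of the run from FvH4_4g09010.1, had 155, 139 and 147 CPM in FaWRKY71-RNAi, against 46.7, 47.3 and 50.2 CPM in Control. The FaWRKY71-RNAi libraries of these last members differed little. FvH4_4g13840.1, the single ID left of the run from FvH4_4g13810.1 to FvH4_4g13850.1, had 1.82, 3.28 and 1.82 CPM in FaWRKY71-RNAi, against 0, 0.73 and 0.218 CPM in Control, and its Control values rest on 7 or fewer counts.

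Series 5 held 6 higher runs. FvH4_5g34290.1, in the run from FvH4_5g34210.1 to FvH4_5g34300.1, had 387, 476 and 386 CPM in the FaWRKY71-RNAi libraries, against 43.7, 42.6 and 41.6 CPM in the Control libraries, means of 416 ± 51.4 CPM in FaWRKY71-RNAi and 42.6 ± 1.03 CPM in Control (SD, n = 3 each). It was 9.76-fold higher, and no library came near the other genotype. FvH4_5g10240.1 in the run that ends at FvH4_5g10290.1 had 185, 220.3 and 189 CPM in FaWRKY71-RNAi, against 58.5, 59.6 and 60.9 CPM in Control. FvH4_5g27490.1 in the run from FvH4_5g27460.1 to FvH4_5g27510.1 had 137, 148 and 145 CPM in FaWRKY71-RNAi, against 42.6, 39.5 and 41.3 CPM in Control. Both differed by about the same fold, 3.32 and 3.49, and neither genotype spread widely. FvH4_5g27490.1 shared reads with an ID of another series, so its fold depends on how these were divided. FvH4_5g27790.1, at the end of the run from FvH4_5g27740.1, had 43.5, 58.6 and 45.4 CPM in FaWRKY71-RNAi, against 14.1, 15.0 and 13.1 CPM in Control. FvH4_5g09360.1, at the end of the run from FvH4_5g09340.1, had 16.8, 14.9 and 16.2 CPM in FaWRKY71-RNAi, against 2.1, 0.313 and 0.644 CPM in Control, where the Control libraries held 21, 3 and 6 counts. FvH4_5g28500.1, in the run from FvH4_5g28490.1 to FvH4_5g28570.1, had 6.21, 8.35 and 6.06 CPM in FaWRKY71-RNAi, against 2.3, 1.15 and 2.58 CPM in Control. That run ended at a neighbour with the opposite ratio, FvH4_5g28610.1, with 64.9, 110.3 and 82.0 CPM in FaWRKY71-RNAi, against 241, 236 and 238 CPM in Control.

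In series 6, which has the most kept IDs (2917), only 2 runs were found. FvH4_6g20410.1, which begins the run to FvH4_6g20450.1, had 129.8, 130.3 and 128 CPM in the FaWRKY71-RNAi libraries, against 13.9, 15.4 and 15.6 CPM in the Control libraries. Its FaWRKY71-RNAi libraries lay within 3 CPM of each other, and its means were 129.5 ± 1.04 CPM in FaWRKY71-RNAi and 14.9 ± 0.904 CPM in Control (SD, n = 3 each), 8.67-fold apart. The other members of this run, FvH4_6g20440.1 and FvH4_6g20450.1, had log2 ratios of 1.90 and 2.04. FvH4_6g00750.1, in the run from FvH4_6g00740.1 to FvH4_6g00770.1, had 35.3, 40.2 and 32.3 CPM in FaWRKY71-RNAi, against 11.3, 12.1 and 11.5 CPM in Control. Series 7, with 1846 kept IDs, held 9 higher runs and 32 of the 112 members, the most members of the 7 series.

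The remaining 6 runs of series 7 ranged widely in level. FvH4_7g01850.1, in the run from FvH4_7g01830.1 to FvH4_7g01880.1, had 269.6, 218 and 239 CPM in the FaWRKY71-RNAi libraries, against 54.7, 49.8 and 51.4 CPM in the Control libraries. FvH4_7g18760.1, which begins the run to FvH4_7g18790.1, had 189, 144 and 166 CPM in FaWRKY71-RNAi, against 46.0, 49.5 and 47.0 CPM in Control. FvH4_7g08080.1, in the run from FvH4_7g08040.1 to FvH4_7g08130.1, had 96.7, 79.8 and 89.4 CPM in FaWRKY71-RNAi, against 20.9, 25.7 and 21.1 CPM in Control. In all of them replicate 2 was lowest of the FaWRKY71-RNAi libraries but stood far above Control. In the last of these runs, FvH4_7g08040.1 had a larger ratio, with 54.5, 40.5 and 49.2 CPM in FaWRKY71-RNAi, against 2.5, 3.45 and 3.97 CPM in Control. FvH4_7g18020.1, in the run from FvH4_7g18010.1 to FvH4_7g18040.1, had 5.29, 4.56 and 5.89 CPM in FaWRKY71-RNAi, against 1.4, 0.974 and 1.72 CPM in Control. FvH4_7g21070.1, which begins the run to FvH4_7g21180.1, had 11.3, 12.6 and 11.1 CPM in FaWRKY71-RNAi, against 0.954, 1.48 and 2.19 CPM in Control. The genotypes did not overlap for either ID, and the Control values rest on 21 or fewer counts per library. FvH4_7g01830.1 had 0.615, 11.9 and 1.47 CPM in FaWRKY71-RNAi, against 0, 0.843 and 2.96 CPM in Control, with replicate 2 alone far above Control. A run needs 3 IDs, so the run that begins there exists only with this ID. It was lost with TMM scaling, without FaWRKY71-RNAi replicate 2 or without either of Control replicates 1 and 2.

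The run from FvH4_7g22140.1 to FvH4_7g22160.1 had the largest ratio of any member and lay between IDs that went the other way. FvH4_7g22150.1 had 23.3, 22.0 and 21.0 CPM in the FaWRKY71-RNAi libraries, against 0.509, 0.209 and 0.328 CPM in the Control libraries, a 63.4-fold difference that rests on 5, 2 and 3 counts in Control. FvH4_7g22140.1 had 4.94, 3.84 and 4.96 CPM in FaWRKY71-RNAi, against 0.30, 0 and 0.367 CPM in Control. FvH4_7g22160.1, left out for low counts, held 83, 95 and 88 counts in FaWRKY71-RNAi and 1, 2 and 0 in Control. The ID directly after it, FvH4_7g22170.1, had 359, 984 and 546 CPM in FaWRKY71-RNAi, against 2949.8, 2874 and 2831 CPM in Control. The ID directly before the run, FvH4_7g22130.1, had 2.21, 7.65 and 3.71 CPM in FaWRKY71-RNAi, against 12.5, 9.3 and 17.2 CPM in Control. The counts of these 5 IDs were largely fractional, which marks reads divided between IDs. No combination of the 5 had whole sums in more than 2 libraries, so how far they share reads with each other could not be read from the table. Whether the opposite changes are related was not tested.

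The next kept ID before or after a run was not always directly consecutive with it, since IDs below 1 CPM were skipped. Of the 64 such IDs next to a higher run, 8 had a log2 ratio of 1 or more. Nearest to the threshold were FvH4_7g08140.1 at 1.49 and FvH4_7g18750.1 at 1.42. Another 8, or 12.5%, had a log2 ratio of -1 or less, against 7.23% of all kept IDs. Beside those already named, the IDs at -1 or less were FvH4_5g09330.1, FvH4_5g10230.1 and FvH4_5g27520.1. FvH4_5g10230.1, directly before FvH4_5g10240.1, had 32.8, 73.3 and 59.4 CPM in FaWRKY71-RNAi, against 122, 122 and 146 CPM in Control. For 6 of these 8, FaWRKY71-RNAi replicate 1 was the lowest and replicate 2 the highest library of the genotype. Of the 490 lower IDs outside the runs, replicate 1 was lowest for 67.1% and replicate 2 highest for 62.7%. The median log2 ratio of the 64 was 0.04, and 33 of them were above 0. A neighbour at 1.5 or more would have been part of the run, so the ratios of neighbours are cut off on that side by the rule. Next to the 3 lower runs the 6 neighbours had a median of 0.57, and FvH4_4g15870.1 was the only one past 1 in the opposite direction. Of the 64 neighbours of higher runs, 48 lay between -1 and 1.

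**Figure D4:**
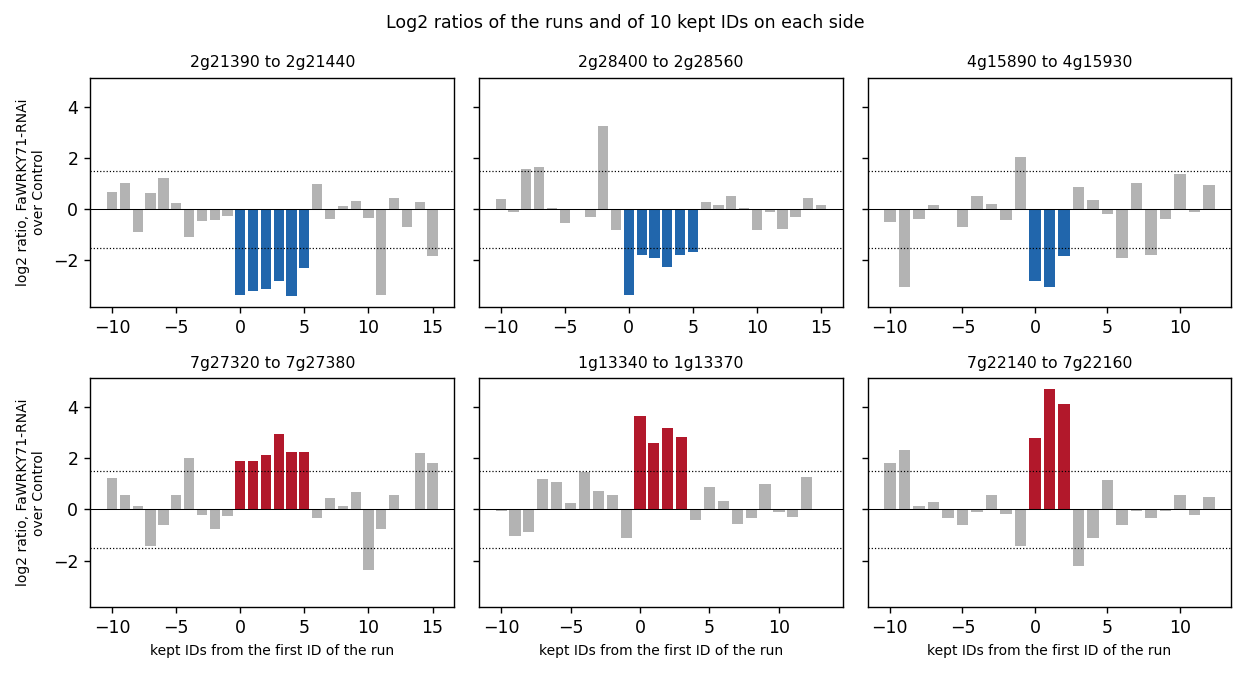
Log2 ratio, FaWRKY71-RNAi over Control, of the IDs of 6 runs (blue for lower, red for higher) and of 10 kept IDs on each side (grey), with the position counted in kept IDs from the first ID of the run. Dotted lines mark 1.5 and -1.5; the run from 7g22140 is flanked by IDs at -1.43 and -2.20, the others mostly by smaller ratios.

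Some members of a run shared reads. The deposited counts are estimates, and where the reads are divided between a pair of IDs their fractions add up to a whole number. Among IDs with fractions in 4 or more libraries, this held in every library for 5 pairs of members of the same run. The sums were taken as whole within the rounding of the deposited values plus 0.001. Pairs with fractions in fewer libraries were not counted. An example is FvH4_7g01850.1 with FvH4_7g01880.1, with fractions in 2 libraries and whole sums, 1862 and 2165, in both. FvH4_1g13350.1 and FvH4_1g13370.1 had 1229.94 and 2037.06 counts in FaWRKY71-RNAi replicate 1, a sum of 3267, and 177.069 and 267.931 counts in Control replicate 1, a sum of 445. The other pairs were FvH4_3g11610.1 with FvH4_3g11620.1, FvH4_4g07420.1 with FvH4_4g07430.1, FvH4_4g15890.1 with FvH4_4g15900.1, and FvH4_5g10240.1 with FvH4_5g10280.1. Within such a pair the split of the reads is uncertain and the sum is not. For the pair that begins with FvH4_3g11610.1 the sums were 148, 501 and 276 counts in FaWRKY71-RNAi, against 84, 73 and 76 in Control, so that the summed counts did not overlap although those of FvH4_3g11610.1 did. For FvH4_4g15890.1 with FvH4_4g15900.1 the sum in FaWRKY71-RNAi was 370, 1 and 283 counts. In FvH4_1g13350.1 with FvH4_1g13370.1 it was 3267, 1972 and 2861, against 445, 428 and 382 in Control. A group of 3 IDs also had whole sums in every library: FvH4_7g18020.1, FvH4_7g18040.1 and the skipped ID between them, FvH4_7g18030.1. The sums of the group were 67, 60 and 76 counts in FaWRKY71-RNAi, against 18, 13 and 21 in Control.

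Shared reads also reached beyond the runs. The fractions of FvH4_7g01830.1 were completed by those of FvH4_7g01820.1, the ID directly before the run. Together they held 35.5, 63.4 and 38.3 CPM in FaWRKY71-RNAi, against 55.1, 61.0 and 72.2 CPM in Control. Replicates 1 and 3 of the sum lay below every Control library and replicate 2 within the Control range, while FvH4_7g01830.1 alone was a member of a higher run. FvH4_5g27490.1 was completed by FvH4_3g37950.1 and FvH4_7g05300.1 by FvH4_6g06420.1, both in other series, with log2 ratios of 0.69 and 0.47. The first pair held 189.6, 214.9 and 205.3 CPM in FaWRKY71-RNAi, against 79.7, 74.0 and 80.2 CPM in Control. The second held 18.6, 19.6 and 17.5 CPM in FaWRKY71-RNAi, against 12.6, 11.6 and 9.01 CPM in Control. Both sums differed less between genotypes than the member alone, whose ratio rests on an uncertain split. In the lower run from FvH4_2g21390.1, the counts of FvH4_2g21390.1 and FvH4_2g21400.1 in FaWRKY71-RNAi replicate 3, 305.549 and 254.451, added up to 560.0. In Control replicate 1 the counts of this pair, 2461.68 and 1898, did not add up to a whole number. The counts of FvH4_2g21420.1 and FvH4_2g21430.1 in Control replicate 2, 573.687 and 223.313, added up to 797. That was the only library with a fraction for the latter pair.

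A fractional count in at least 1 library was found for 56 of the 112 members. Among the higher members it was 48.5%, against 33.2% of the 1570 kept IDs with a log2 ratio of 1.5 or more outside the runs. Among the lower members it was 60.0%, against 23.5% of the 490 with -1.5 or less outside them, and over all kept IDs it was 24.0%. Fractions in 4 or more libraries were found for 31 members, and for 11 of these a completing ID lay within 5 IDs in the table, or 35.5%, against 40.8% of all kept IDs with such fractions. These differences in share were not tested. Which reads members have in common with neighbours is known only where the fractions of a pair or group are complete. The 5 pairs of members with fractions in 4 or more libraries were each summed to a single ID. The rule then gave 31 runs, 29 higher and 2 lower, with 99 members, all of which were members before. Pairs of a member with an ID outside its run were not summed. The runs that begin at FvH4_7g01830.1, FvH4_5g27460.1 and FvH4_7g05300.1, which hold such members, were therefore still among the 31. So 31 is not the number of runs left once all shared reads are joined. With only IDs that are whole in every library it gave 20 runs, 17 higher and 3 lower, with 57 members, 33 of which were members before. Both changes were chosen after seeing the data.

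The higher members had few counts in Control. Their median was 10.2 CPM in FaWRKY71-RNAi and 1.54 CPM in Control. The 1570 IDs past the same ratio outside the runs had a median of 17.9 CPM in FaWRKY71-RNAi and 3.6 CPM in Control. A Control mean below 1 CPM was found for 38 of the 97 members, and 30 had a Control library with 3 or fewer counts. The lower members had a median of 1.85 CPM in FaWRKY71-RNAi and 24.6 CPM in Control, against 1.96 and 11.4 CPM for the 490 outside the runs. Levels were part of the rule, through the minimum of 1 CPM and the ratio, and were not tested.

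Among the higher members the order of the FaWRKY71-RNAi libraries varied. Replicate 1 was the highest of its genotype for 39 members, replicate 2 for 40 and replicate 3 for 18. These were 40.2%, 41.2% and 18.6% of the members, against 51.9%, 30.2% and 17.9% of the 1570 others. Replicate 2 was the lowest for 47 members, or 48.5%, and replicates 1 and 3 for 25 each. Among the 1570 others replicate 2 was lowest for 54.6%. The median coefficient of variation among the FaWRKY71-RNAi libraries was 15.7% for the members and 13.8% for the others.

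A run may also step over IDs with too few counts to be kept. Of the 35 runs, 13 consisted of directly consecutive IDs, and the other runs skipped 100 IDs in all, 26 of which had no count in any library. Of the 90 steps from an ID of a run to the next, 60.0% went to the directly following ID, against 61.2% of the steps between all kept IDs of a series. When a run was broken at every skipped ID, 15 runs remained, 14 higher and 1 lower, with 47 members. All members stayed in a run whichever library was left out for 13 of the higher runs, among them those that begin at FvH4_7g27320.1, FvH4_1g13340.1, FvH4_7g27890.1, FvH4_2g30240.1, FvH4_5g34210.1, FvH4_6g20410.1 and FvH4_7g22140.1. Of the lower runs this held for the one that begins at FvH4_2g21390.1. With FaWRKY71-RNAi replicate 1, 2 or 3 left out in turn, 22, 23 and 28 of the 32 higher runs kept all their members in a run, and with Control replicate 1, 2 or 3 left out, 26, 25 and 26 did. The same contrast chose these runs, so this describes how much each run rests on a single library. With TMM scaling, 19 of the 32 higher runs kept all their members in a run, fewer than with any library left out. All 3 lower runs kept theirs.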

How the data were processed

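Poly(A) RNA of 3 FaWRKY71-RNAi and 3 Control receptacle samples was sequenced as paired-end reads with a stranded kit, per the labels' protocols, which call the samples independent biological replicates. Nothing in the labels says whether they came from separate plants, so p-values measure only the spread between these samples. The authors deposited estimated counts per ID, many of them fractional, in 1 table. The sources used here name no aligner, counting tool or genome build. The columns name each genotype, while a control column's replicate number also resembles another control's title, so numbers of Control replicates are uncertain. No value column was left without a sample.

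CPM were computed with the column sums, and the runs with the rule given in the report. Counts were rounded to whole numbers for edgeR 4.0.16 in R 4.3.3 (filterByExpr, TMM, quasi-likelihood F test, Benjamini-Hochberg threshold 0.05 over the 15547 IDs tested). DESeq2 1.42.0 was an alternative. The scripts for edgeR and for the runs were first tested on simulated data. Every member of the 3 lower and the 4 longest higher runs (ties settled by the median ratio) was named, and of the other runs the member with the highest mean CPM. IDs outside this rule were chosen after their values were seen. The members, the rule and the naming were all chosen with earlier results of these data known. Sequences and gene functions of the IDs were not used here.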

Additional observations from a re-analysis of the deposited data

How the results depend on the processing

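The number of runs (35) and of members (112) depended on the settings of the rule. It was 20 runs and 62 members with 1 CPM added to each mean, 17 and 54 with a minimum of 5 CPM, and 15 and 47 with runs broken at every ID below the minimum. A log2 ratio of 1 gave 144 runs and 468 members, a ratio of 2 gave 9 and 29, and IDs with whole counts in every library gave 20 and 57. Leaving out each library in turn gave 29 to 36 runs and 91 to 115 members. With 0.1 CPM added there were 50 runs with 166 members, and with TMM scaling 26 with 81. The median ratios of the 35 runs were recomputed with TMM scaling, with 0.1 or 1 CPM added and without each library. Of the 315 values this gave, 77 moved by more than the spread, and the cause was not tested. The spread is the SD of the run's median ratio over the 3 FaWRKY71-RNAi libraries, each set against the Control mean. It leaves out the spread among Control libraries and is wide where a single FaWRKY71-RNAi library differs. The 77 is therefore not a measure of how stable the runs are. The number that changed sign was 0. The members were chosen for large ratios in these same libraries, which left little room for a change of sign, so nothing is read from this number. edgeR called 8435 IDs and 110 of the 112 members, and DESeq2 called 8212 and 108. Leaving out each library gave 6823 to 10241 IDs and 102 to 110 members. With a replicate block edgeR called 7611 IDs and 103 members. Samples with the same number did not deviate together (correlations of 0.0905, -0.0441 and 0.0306), so the numbers were not taken as pairs. Depth limits the members with few counts: 30 of the 97 higher members had a Control library at 3 or fewer counts, and 12 of the 15 lower members a FaWRKY71-RNAi library.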
